A study of Mus musculus with 12 samples.

Results

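The 9 genes examined encode transcription factors that build and keep the hepatocyte, and are Onecut1, Onecut2, Foxa1, Foxa2, Foxa3, Cebpa, Cebpb, Gata4 and Prox1. They were chosen by name, and all 9 were found among the 48537 genes of the deposited table and among the 17957 genes tested. RNA-seq was made from mouse livers collected 10 h into the light phase (ZT10), with 4 livers in each of 3 groups. In the re-expression livers both REV-ERB genes were knocked out (DKO, double knockout), and their label adds REV-ERBalpha-WT. The livers labelled DKO carried the same knockout with YFP, a fluorescent protein, and the control livers were labelled wildtype, with YFP. The column names of the table add Cre, a recombinase, for the DKO group only, so Cre and loss of REV-ERB cannot be told apart there. For the re-expression group the column names hold YFP and WT but not Cre. These names do not establish whether those livers carried YFP or Cre. Age, sex, strain, the deleted part of the genes and the way the proteins were delivered are not given in the sources used here. REV-ERBalpha and REV-ERBbeta are nuclear receptors that repress transcription in the circadian clock.

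Liver cells take and hold their identity through a small set of DNA-binding proteins that act together at the same enhancers. The FOXA proteins open closed chromatin, the C/EBP proteins drive metabolic and acute phase genes, the ONECUT proteins act in hepatocyte and bile duct development, GATA4 acts early in liver formation, and PROX1 is needed for hepatoblasts to spread and restrains nuclear receptors later. The product of Onecut1, HNF6, is known to tether REV-ERBalpha and its corepressor to sites in liver chromatin that lack the receptor's own DNA element.

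Each library held between 5621667 and 6906221 reads, recovered from the deposited values, and a member had between 34 and 2816 reads in a liver. Nr1d1, the gene of REV-ERBalpha, averaged 191 ± 22.4 TPM in re-expression livers, 82.5 ± 7.39 TPM in livers labelled DKO and 68.7 ± 5.53 TPM in control livers (SD, n = 4; TPM gives transcripts scaled to gene length and to a common library total). A whole-gene level can include reads from outside a deleted part, so it does not check the deletion. Arntl, a gene that REV-ERB represses, averaged 15.1 TPM in re-expression livers, 19.8 TPM in livers labelled DKO and 0.728 TPM in control livers. Control replicates 3 and 4 stood apart on principal component 2 of the libraries, at -43.8 and -48.7, while control replicates 1 and 2 were at 26.9 and 6.36 and the re-expression and DKO livers lay between -8.48 and 30.3. On principal component 1 control replicates 1 to 4 were at -63.2, -37.1, -20.6 and -11.3, and the other livers lay between -6.58 and 29.5. The cause of these positions was not tested. Hepatocyte markers were present in every liver, with a summed level of 44333 to 48010 TPM over 7 genes in re-expression livers, 44696 to 47555 TPM in livers labelled DKO and 42170 to 46410 TPM in control livers. Of 7 pancreas markers 5, namely Ins1, Ins2, Pdx1, Prss1 and Ptf1a, were at 0 in every liver. The pancreas sum was 12.3 to 19.98 TPM in re-expression livers, 20.9 to 29.6 TPM in livers labelled DKO and 9.36 to 14.5 TPM in control livers. It came from Cela1, an elastase gene, which was called higher in livers labelled DKO than in control livers, and from Cpa1 in 1 control liver. The intestinal factor gene Cdx2 was at 0 in every liver. The other 3 intestine markers summed to 109 to 155 TPM in re-expression livers, 126 to 130.4 TPM in livers labelled DKO and 91.7 to 131 TPM in control livers. Only 1 of these 3 averaged at least 1 TPM, so nearly all of the sum came from 1 gene. The part of such cells in the levels given below was not tested.

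Cebpa, the gene of the metabolic regulator C/EBPalpha, had the highest level of the 9 in every group, and its range did not reach that of the next gene. Prox1 and Foxa3 followed in that order in every group, with overlapping ranges, and then Onecut2. The other 5, Onecut1, Foxa1, Foxa2, Cebpb and Gata4, had group means between 13.6 and 29.0 TPM, and in every group each overlapped the next in the order of levels. Onecut3, the remaining gene of the ONECUT family, was listed at 0 in every liver.

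Onecut1 (chromosome 9, 74861921 to 74891781, plus strand, build mm10) varied more among livers of the same group than it differed between groups. It stood at 5.37, 35.5, 6.91 and 31.3 TPM in re-expression replicates 1 to 4, at 6.21, 5.87, 49.6 and 3.90 TPM in the livers labelled DKO, and at 23.0, 30.4, 7.47 and 46.9 TPM in control livers. Every group held both low and high livers, and no liver had a level between 7.47 and 23.0 TPM. The highest liver exceeded the lowest of its own group 6.61-fold in the re-expression group, 12.7-fold in the DKO group and 6.27-fold in the control group. High values were thus found in 2 of 4 re-expression livers, in DKO replicate 3 alone and in 3 of 4 control livers.

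Between groups, Onecut1 was not called in any comparison. The test was limma's on log2(TPM + 1) across all tested genes, with Benjamini-Hochberg adjustment, and called means an adjusted p under 0.05. The difference of livers labelled DKO minus control livers was -1.16 on that scale, with a 95% interval from -2.97 to 0.65 (adjusted p = 0.512). Without DKO replicate 3 it was -1.91 (adjusted p = 0.194), and without DKO replicate 4 it was -0.79 (adjusted p = 0.726). Re-expression livers minus livers labelled DKO gave 0.57 (interval -1.24 to 2.38), and re-expression livers minus control livers gave -0.59 (interval -2.40 to 1.22). All 3 intervals include 0 and are wide, so a group difference was not detectable with this spread. Gm20649, a noncoding gene that overlaps Onecut1 on the same strand, was listed at 0 in every liver.

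**Figure D1:**
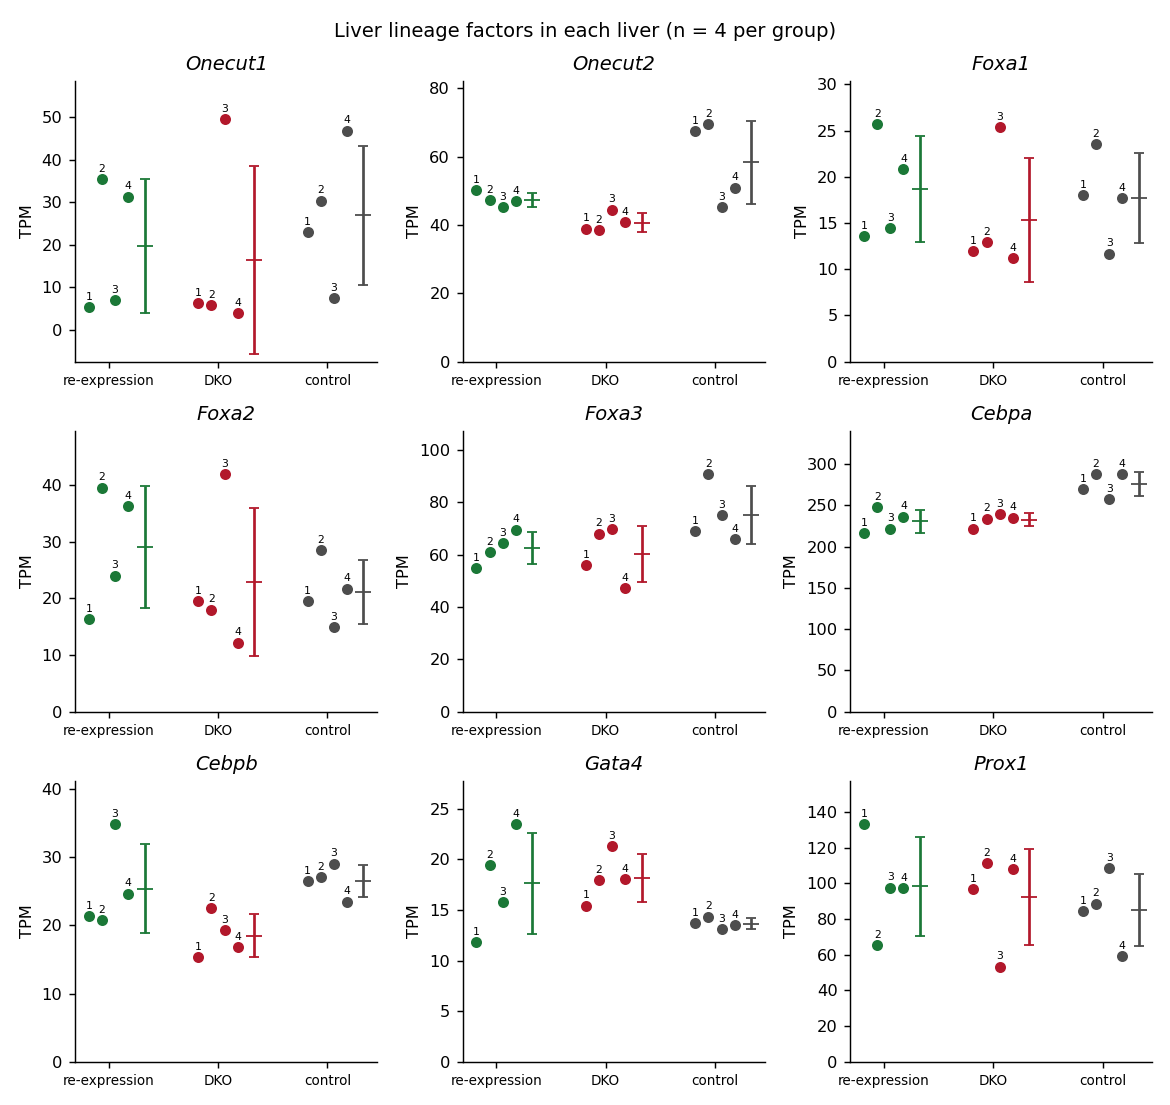
TPM of each of the 9 genes (y axis) in the 4 livers of each group (x axis); points are livers, numbers are replicates, and the bar at the right of each group is the mean with 1 SD. Onecut1 has low and high livers in every group, while Cebpa lies between 216 and 248 TPM in re-expression livers, between 222 and 239.5 TPM in livers labelled DKO and between 258 and 288 TPM in control livers.

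Foxa1 and Foxa2, whose products open chromatin for other liver factors, went with Onecut1 from liver to liver. Foxa1 lies on the minus strand of chromosome 12 (57540628 to 57546916). Its levels were 13.6, 25.7, 14.4 and 20.8 TPM in re-expression replicates 1 to 4, 11.97, 12.9, 25.3 and 11.2 TPM in livers labelled DKO, and 17.98, 23.6, 11.7 and 17.7 TPM in control livers. Its highest liver was the highest for Onecut1 in the re-expression and DKO groups, and its lowest liver was the lowest for Onecut1 in all 3 groups. Foxa2, on the minus strand of chromosome 2 (148042877 to 148046969), had levels of 16.4, 39.5, 24.0 and 36.2 TPM in re-expression livers, 19.6, 18.02, 41.9 and 12.2 TPM in livers labelled DKO, and 19.6, 28.5, 14.9 and 21.7 TPM in control livers. It was highest and lowest in the same livers as Foxa1. DKO replicate 3 and re-expression replicate 2 were thus the highest livers of their groups for Onecut1, Foxa1 and Foxa2 alike.

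Prox1, on the minus strand of chromosome 1 (190118035 to 190170714), went the other way. It stood at 133, 65.4, 97.7 and 97.1 TPM in re-expression livers, at 96.9, 112, 53.4 and 108 TPM in livers labelled DKO, and at 84.4, 88.6, 108 and 59.2 TPM in control livers. In each group its lowest liver was the one with the most Onecut1, and in the re-expression and control groups its highest liver was the one with the least. Prox1os and Gm28172 overlap Prox1 on the opposite strand, and no source used here says whether the counting kept strands apart. Prox1os ran from 26.1 to 33.5 TPM in re-expression livers, 21.5 to 35.2 TPM in livers labelled DKO and 22.5 to 31.5 TPM in control livers, well under Prox1.

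As a measure of likeness to Onecut1, Pearson's r of log2(TPM + 1) over the 12 livers was 0.91 for Foxa1, 0.80 for Foxa2 and -0.85 for Prox1, with no test. After each group's mean was removed r was 0.94, 0.93 and -0.89. Since the livers fall on both sides of a gap in Onecut1, r is set in part by that gap. Among the 6 livers below it r was 0.38, 0.64 and -0.30, and among the 6 above it 0.29, 0.41 and -0.84. The other 5 members had r between 0.13, for Cebpb, and 0.63, for Cebpa. After each group's mean was removed theirs was 0.78 for Cebpa, 0.71 for Gata4, 0.42 for Foxa3, 0.34 for Onecut2 and -0.21 for Cebpb. By this measure Cebpa and Gata4 also went with Onecut1 within groups, but neither kept its sign on both sides of the gap. Without removal of group means, r for Cebpa was 0.23 among the 6 livers below the gap and -0.15 among the 6 above it. For Gata4 it was -0.40 and 0.26. Points of this kind share libraries, depth and the scaling to a common total.

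**Figure D2:**
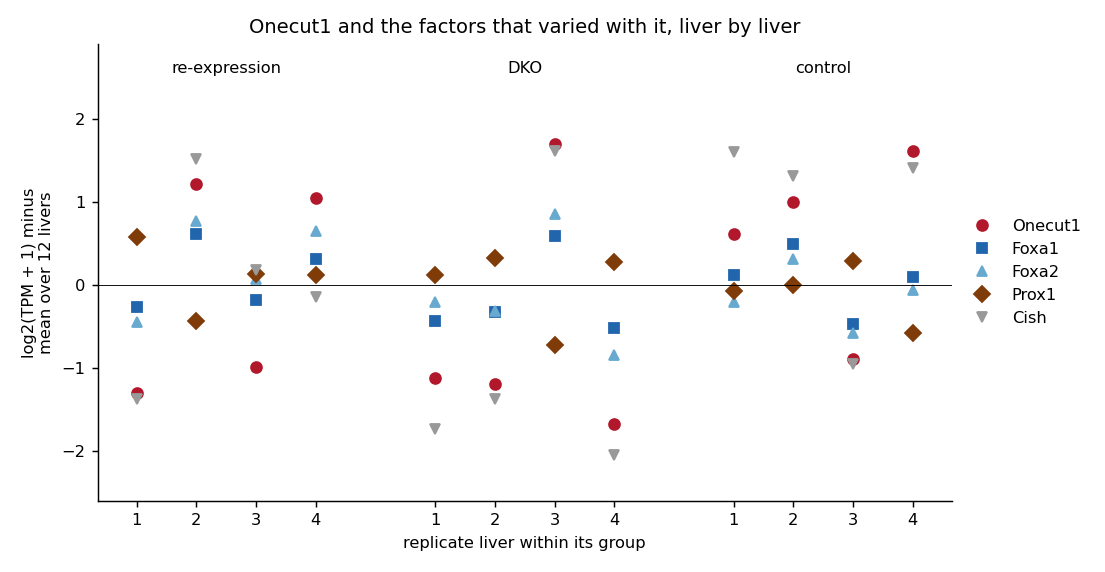
Difference of log2(TPM + 1) from the mean over 12 livers (y axis) for Onecut1, Foxa1, Foxa2, Prox1 and Cish in each replicate liver (x axis) of the 3 groups. In DKO replicate 3 and re-expression replicate 2 Onecut1, Foxa1, Foxa2 and Cish lie above the mean and Prox1 lies below it.

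Among named genes, those most like Onecut1 over the 12 livers were Prdm2, a gene of a histone methyltransferase (r = 0.95), Arid5b, a gene of a DNA-binding chromatin regulator (r = 0.94), and Plcxd2 (r = 0.92). Arid5b stood at 26.7, 86.7, 47.5 and 51.9 TPM in re-expression replicates 1 to 4, at 24.1, 30.2, 87.8 and 19.96 TPM in livers labelled DKO, and at 76.0, 72.1, 31.0 and 85.9 TPM in control livers. Its highest liver in each group was the one with the most Onecut1. Arid5b was picked by its r with Onecut1 over these same livers, so this likeness follows from the choice and adds no separate support. Only 5 of the other tested genes had a higher r with Onecut1 than Foxa1 did, and 6 had a lower r than Prox1.

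Cish, which encodes a feedback inhibitor of cytokine signalling that growth hormone switches on through STAT5, was picked out after its values were seen. It stood at 1.17, 15.1, 5.36 and 4.09 TPM in re-expression replicates 1 to 4, at 0.682, 1.16, 16.2 and 0.360 TPM in livers labelled DKO, and at 16.1, 13.0, 1.91 and 14.0 TPM in control livers (r = 0.90 with Onecut1). Re-expression replicate 4 was an exception, with high Onecut1 and a Cish level under that of replicate 3. Socs2, another gene of this kind and picked in the same way, was less alike (r = 0.61) and was highest in DKO replicate 3, at 21.0 TPM. Among re-expression livers Socs2 was highest in replicate 2, which had the most Onecut1. Control replicate 4 had the most Onecut1 of its group, but its Socs2 level was 5.98 TPM, under those of replicates 1 and 2. Among livers below the gap in Onecut1 r was 0.69 for Cish and 0.18 for Socs2. Among those above it r was 0.18 for Cish and 0.23 for Socs2. In rat liver growth hormone is known to raise HNF6. The part of growth hormone in the spread of Onecut1 was not tested.

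The 250 bases before the RefSeq start of Onecut1, Foxa2 and Prox1 are shown because these genes varied together or oppositely in the same livers. Foxa1 also went with Onecut1, but its window is not shown. Capitals mark matches, on either strand, to the E-box CACGTG bound by clock activators, the core ATCAAT bound by HNF6, the core TGTTTAC bound by FOXA proteins, or AGGTCA, the half-site within the element bound by REV-ERB and ROR. Build is GRCm38.p6, and each sequence reads 5′ to 3′ on the gene's strand.
Onecut1, chr9:74861671-74861920, plus strand: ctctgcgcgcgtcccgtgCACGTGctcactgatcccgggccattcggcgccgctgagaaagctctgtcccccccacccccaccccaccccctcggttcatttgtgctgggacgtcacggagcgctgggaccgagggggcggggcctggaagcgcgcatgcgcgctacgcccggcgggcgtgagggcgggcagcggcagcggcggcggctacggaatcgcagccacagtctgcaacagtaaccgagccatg
Foxa2, chr2:148046970-148047219, minus strand: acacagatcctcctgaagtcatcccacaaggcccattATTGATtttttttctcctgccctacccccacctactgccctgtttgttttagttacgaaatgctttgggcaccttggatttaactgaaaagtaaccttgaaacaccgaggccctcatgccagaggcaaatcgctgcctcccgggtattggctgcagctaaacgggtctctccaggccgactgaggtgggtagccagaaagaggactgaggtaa
Prox1, chr1:190170828-190171077, minus strand: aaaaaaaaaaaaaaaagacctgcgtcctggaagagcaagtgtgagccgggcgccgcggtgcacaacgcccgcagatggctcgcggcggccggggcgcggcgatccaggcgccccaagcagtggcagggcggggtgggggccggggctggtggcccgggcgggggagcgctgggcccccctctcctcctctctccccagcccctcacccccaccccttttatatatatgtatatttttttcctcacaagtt

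The Onecut1 window held 1 E-box, 232 bases before the start, and the Foxa2 window held 1 HNF6 core, 213 bases before the start. The Prox1 window held none of the 4 motifs, and none of the 3 windows held AGGTCA. Of 32851 windows of this length before RefSeq starts, 6.02% held the E-box, 6.72% the HNF6 core, 3.17% the FOXA core and 14.0% AGGTCA. These are matches of letters, not binding sites. RefSeq entries matched 7 of the 9 members.

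Foxa1, Foxa2 and Prox1 were not called between any groups. In livers labelled DKO minus control livers the difference was -0.23 for Foxa1 (interval -0.86 to 0.39), 0.00295 for Foxa2 (interval -0.78 to 0.79) and 0.09 for Prox1 (interval -0.50 to 0.68), with adjusted p of 0.735, 0.999 and 0.903. In re-expression livers minus livers labelled DKO it was 0.29, 0.39 and 0.10, and in re-expression livers minus control livers 0.06, 0.39 and 0.19, all with adjusted p of at least 0.751. Foxa3, the FOXA gene that rises last in liver development, varied less from liver to liver. It averaged 62.4 ± 6.19 TPM in re-expression livers, 60.2 ± 10.6 TPM in livers labelled DKO and 75.2 ± 11.1 TPM in control livers (SD, n = 4). Its ranges overlapped, and the difference between livers labelled DKO and control livers was -0.32 (interval -0.62 to -0.02, adjusted p = 0.238).

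Onecut2 and Cebpa, 2 of the 9 members, were lower in livers labelled DKO than in control livers and past the threshold. At an unadjusted p under 0.05 there were 5 members, beside 18.4% of all tested genes. The voom test on recovered reads called 1, Onecut2, beside 6.83% of all tested genes. Across all tested genes 2.34% were called lower in this comparison and 2.99% higher, 5.33% in all. The groups did not overlap for 4 members, with Onecut2, Cebpa and Cebpb lower and Gata4 higher, against 11.5% of all tested genes. The median difference of the 9 members was -0.24, and 6 of 9 were negative. The median over all tested genes was 0.00107. In whole tissue, fewer cells of a type and less RNA per cell cannot be told apart.

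Onecut2, a paralog of Onecut1 on chromosome 18 that shares developmental roles with it, fell by 0.49 ± 0.12 on the log2 scale in livers labelled DKO (SE, adjusted p = 0.0447). It stood at 38.9, 38.5, 44.5 and 40.9 TPM in livers labelled DKO and at 67.4, 69.6, 45.3 and 50.9 TPM in control livers. The groups were separated only by the gap from 44.5 to 45.3 TPM, and the control livers spread widely. The 2 high control livers were replicates 1 and 2, which lay farthest out on principal component 1. The 2 lower ones, replicates 3 and 4, were those that stood apart on principal component 2. Without replicates 1 and 2 the difference was -0.24 (adjusted p = 0.178), and without control replicates 3 and 4 it was -0.74 (adjusted p = 0.00142). The call was also lost without control replicate 1 or 2 alone, without any 1 DKO library and without any 1 re-expression library, with adjusted p from 0.0574 to 0.118.

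The authors' deposited table gave, in its first numbered comparison, a log2 fold change of -0.51 for Onecut2 with an adjusted p of 2.1e-05. The header does not name the groups of that comparison, whose fold changes follow the difference of livers labelled DKO minus control livers most closely. In re-expression livers Onecut2 stood at 50.1, 47.2, 45.3 and 47.0 TPM. Every one of these livers lay above every liver labelled DKO, but the difference of 0.22 was not called (interval -0.06 to 0.49, adjusted p = 0.944). Against control livers it was -0.27 (interval -0.54 to 0.00178, adjusted p = 0.403), and -0.52 without control replicates 3 and 4 (adjusted p = 0.0138, in a range of 0.0138 to 0.944 over 23 alternatives).

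Cebpa (chromosome 7, 35119293 to 35121928, plus strand) fell by 0.24 ± 0.06 in livers labelled DKO (SE, adjusted p = 0.0430), a ratio of means of 0.843. It stood at 222, 234, 239.5 and 235 TPM in livers labelled DKO and at 270.1, 288, 258 and 288 TPM in control livers. The groups did not overlap, and the spread within each was small. In re-expression livers Cebpa stood at 216, 248, 222 and 236 TPM, within or close to the range of the livers labelled DKO and below every control liver. The difference from livers labelled DKO was -0.01 (interval -0.15 to 0.12, adjusted p = 1), and that from control livers was -0.26 (interval -0.39 to -0.12, adjusted p = 0.0638).

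The call of Cebpa was lost without control replicate 1, 2 or 4, without any 1 DKO library and without re-expression replicate 3 or 4, with adjusted p from 0.0562 to 0.122. Over all 23 alternatives it ran from 0.0174 to 0.150. In the authors' deposited table its log2 fold change in the first numbered comparison was -0.25, with an adjusted p of 0.0827. Gm45091 overlaps the start of Cebpa on the opposite strand and had at most 8 reads in a liver.

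Cebpb, the gene of the C/EBP protein that responds to inflammatory and hormonal signals, was not called. It lies on the plus strand of chromosome 2 (167688915 to 167690418) and had levels of 15.4, 22.5, 19.4 and 16.8 TPM in livers labelled DKO and 26.5, 27.0, 29.1 and 23.5 TPM in control livers. These groups did not overlap, with a difference of -0.51 (interval -0.86 to -0.15, adjusted p = 0.109). In re-expression livers it stood at 21.4, 20.8, 34.8 and 24.6 TPM, overlapping both other groups. The difference from livers labelled DKO was 0.42 (interval 0.07 to 0.77, adjusted p = 0.672), and that from control livers was -0.09 (adjusted p = 0.904). Without re-expression replicate 3, the highest of its group, the lower level in livers labelled DKO than in control livers was called (adjusted p = 0.0413, in a range of 0.0413 to 0.277 over 23 alternatives). Between 49 and 116 reads fell on Cebpb in a liver. Tmem189 overlaps it on the opposite strand and ran from 5.68 to 6.24 TPM in livers labelled DKO and from 6.39 to 8.404 TPM in control livers. The part of its reads in the value of Cebpb was not tested. Kupffer cells, the liver's macrophages, also make C/EBPbeta, and their 8 markers summed to 397 to 1050 TPM in re-expression livers, 471 to 533 TPM in livers labelled DKO and 449.6 to 1019 TPM in control livers. Of the 8 log2 differences between the DKO and control groups 0 were positive, with a median of -0.41, and limma, voom and an unadjusted p under 0.05 each called 0. Their part in the level of Cebpb was not tested.

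Gata4, on the minus strand of chromosome 14 (63198922 to 63271692), is made in hepatocytes and also in sinusoidal endothelial and stellate cells. Its levels were 15.4, 17.9, 21.3 and 18.03 TPM in livers labelled DKO and 13.7, 14.3, 13.1 and 13.5 TPM in control livers. All 4 livers labelled DKO lay above all 4 control livers, but the difference of 0.38 was not called (interval 0.00618 to 0.75, adjusted p = 0.263). In re-expression livers it stood at 11.8, 19.4, 15.8 and 23.5 TPM, a range that took in that of the livers labelled DKO. The difference was -0.07 from livers labelled DKO (adjusted p = 1) and 0.31 from control livers (adjusted p = 0.527).

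Summed markers of the other cell types that make Gata4 also lay higher in every liver labelled DKO than in every control liver. The 9 sinusoidal endothelium markers summed to 275 to 339 TPM in livers labelled DKO and 233 to 260.0 TPM in control livers, with all 9 log2 differences positive. Limma and voom called 0 of them, and 5 had an unadjusted p under 0.05. The 9 stellate cell markers summed to 228 to 260.1 TPM in livers labelled DKO and 149.8 to 194 TPM in control livers, with 3 called higher and all 9 positive. In re-expression livers the sums ran from 185 to 282 TPM for sinusoidal endothelium and from 191 to 248 TPM for stellate cells. Against control livers 3 of the 9 sinusoidal endothelium differences were positive there (median -0.0184), and all 9 stellate cell differences (median 0.33). Re-expression replicate 1 had the lowest Gata4 of its group, 11.8 TPM, with sums of 282 and 248 TPM. Replicate 4 had the highest Gata4, 23.5 TPM, with sums of 274 and 193 TPM. The part of these cells in the level of Gata4 was not tested. Lymphatic endothelium, which makes PROX1, had a summed level over 4 markers of 18.03 to 24.2 TPM in re-expression livers, 21.0 to 30.3 TPM in livers labelled DKO and 18.01 to 23.7 TPM in control livers.

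**Figure D3:**
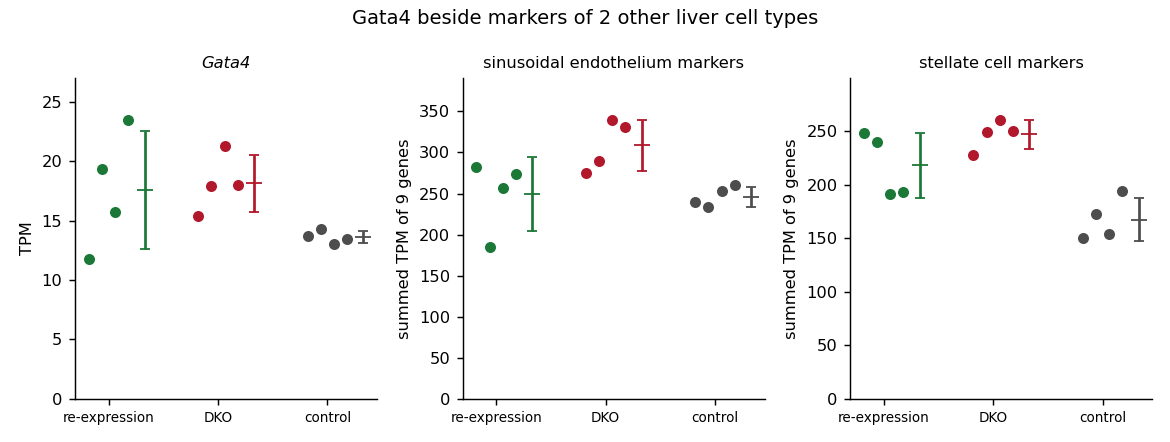
TPM of Gata4 (left) and summed TPM of 9 sinusoidal endothelium markers (middle) and 9 stellate cell markers (right) in each liver; points are livers, bars are the mean with 1 SD. In all 3 panels every liver labelled DKO lies above every control liver. Among re-expression livers, replicate 1 has the lowest Gata4 and the highest sum of both marker sets.

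No member was called by limma in re-expression livers against livers labelled DKO or against control livers. Of all tested genes 0.0724% were called against livers labelled DKO, 0.0278% higher and 0.0446% lower, and 1.82% against control livers, 1.16% higher and 0.663% lower. Before adjustment 1 member in each had a p under 0.05, Cebpb against livers labelled DKO and Cebpa against control livers, beside 6.19% and 12.5% of all tested genes. The voom test also called 0 in both, beside 0.189% and 2.99%. Groups did not overlap for 1 member in each, Onecut2, higher than in livers labelled DKO, and Cebpa, lower than in control livers, beside 4.25% and 7.28% of all tested genes. The median difference of the members was 0.22 against livers labelled DKO and -0.09 against control livers, beside 0.0129 and 0.0105 over all tested genes. These comparisons share livers, so their values are not independent.

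**Figure D4:**
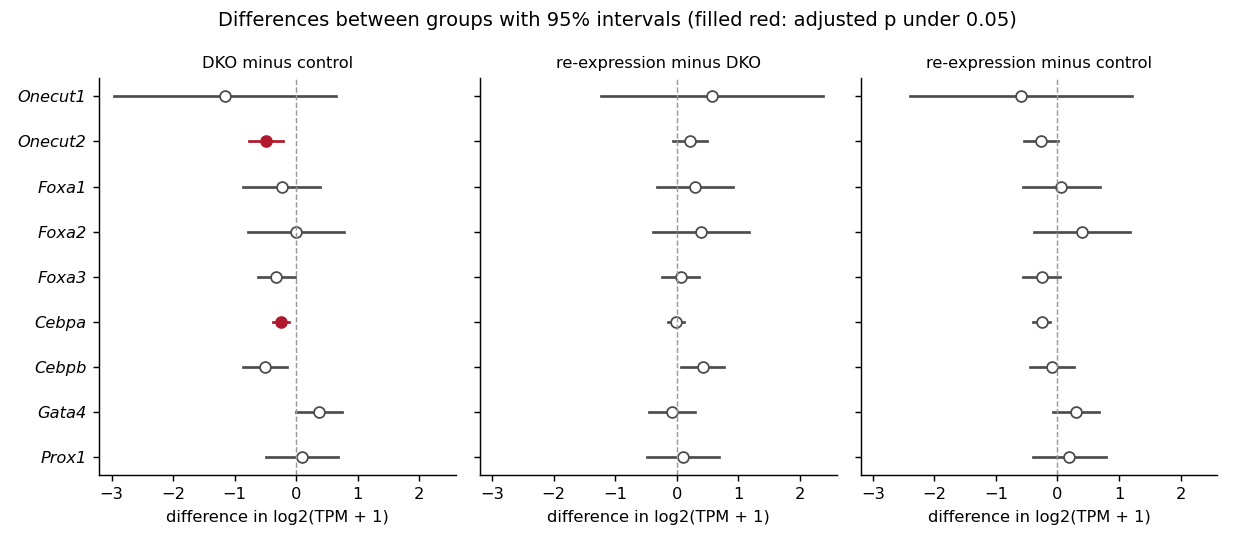
Difference in log2(TPM + 1) between groups (x axis) for each of the 9 genes (y axis), with its 95% interval, in the 3 comparisons; filled red points have an adjusted p under 0.05. Onecut1 has the widest interval in each panel, and Onecut2 and Cebpa, both lower in livers labelled DKO than in control livers, are the 2 called differences.

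The named genes most like Onecut2 over the 12 livers were Ddhd2, a phospholipase gene (r = 0.97), Nudt12, a gene of an NAD-cleaving enzyme (r = 0.96), and Ncoa6, a gene of a nuclear receptor coactivator (r = 0.95). Ddhd2 averaged 16.0 ± 1.65 TPM in re-expression livers, 13.7 ± 1.65 TPM in livers labelled DKO and 26.7 ± 7.85 TPM in control livers (SD, n = 4), and like Onecut2 it spread widely among control livers. Among those most like Cebpa were Stk35, a kinase gene (r = 0.94), and Pex26, a gene of peroxisome assembly (r = 0.93). Pex26 averaged 22.3 ± 4.62 TPM in re-expression livers, 20.6 ± 6.50 TPM in livers labelled DKO and 40.1 ± 7.11 TPM in control livers (SD, n = 4). All these genes were picked by their r over the same 12 livers, so their likeness to Onecut2 or Cebpa follows from the choice.

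The 28 other liver factors listed beside the members were also mixed in livers labelled DKO against control livers. Of 26 tested, 4 were called higher and 1 lower, with a median of -0.06. Of all tested genes 2.99% were called higher and 2.34% lower. Nr0b2, the gene of SHP, a corepressor without a DNA-binding domain, averaged 99.5 ± 15.1 TPM in livers labelled DKO and 40.3 ± 22.8 TPM in control livers (SD, n = 4, difference 1.46, adjusted p = 0.0396). Atf5, a bZIP factor gene with much RNA in liver, averaged 119 ± 25.4 TPM in livers labelled DKO and 75.2 ± 6.70 TPM in control livers (difference 0.64, adjusted p = 0.0296). Nr1h4, the gene of the bile acid receptor FXR, averaged 207 ± 5.99 TPM in livers labelled DKO and 299 ± 46.3 TPM in control livers (difference -0.52, adjusted p = 0.0173). Sox9, also called higher (adjusted p = 0.00078), is a factor of bile duct cells, whose 7 markers, Sox9 among them, summed to 93.1 to 103 TPM in livers labelled DKO and 86.6 to 119 TPM in control livers.

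Hnf4a, the central nuclear receptor of hepatocyte identity, was not called and averaged 500.4 TPM in livers labelled DKO and 448 TPM in control livers (difference 0.16 ± 0.07, SE, adjusted p = 0.225). Limma and voom called 0 of the 26 when re-expression livers were set against livers labelled DKO. There 2 had an unadjusted p under 0.05, beside 6.19% of all tested genes. Against control livers limma called 2, beside 1.82% of all tested genes. Both were higher, Sox9 and Nr1i3, the gene of the xenobiotic receptor CAR. Nr1i3 averaged 80.7 ± 1.75 TPM in re-expression livers and 64.8 ± 5.05 TPM in control livers (SD, n = 4, difference 0.32, adjusted p = 0.0360). The voom test called 4 there, Nr0b2 and Atf5 with those 2, beside 2.99% of all tested genes.

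Of 27 liver genes listed as known targets of the 9 factors, 25 were tested. In livers labelled DKO against control livers 4 were called higher and 5 lower, with a median of -0.05. Of all tested genes 2.99% were called higher and 2.34% lower, a smaller share than in this list. The list was chosen with earlier results of these data known and holds many genes with much RNA in liver. The larger share is therefore no independent evidence about targets of the 9 factors, and its cause was not tested. Ttr, the transthyretin gene and a classical target of HNF6 and FOXA proteins, averaged 6795 ± 126 TPM in livers labelled DKO and 5456 ± 503 TPM in control livers (SD, n = 4, difference 0.32, adjusted p = 0.0250). Cps1, the first enzyme of the urea cycle, and Tdo2, an enzyme of tryptophan breakdown, were higher by 0.32 and 0.45 (adjusted p = 0.0156 and 0.0241), and Cyp8b1 was also called higher. The lower genes were Slc2a2, Cyp7a1, Hp, Orm1 and Ugt1a1. Slc2a2, the gene of the glucose transporter GLUT2, averaged 215 ± 9.37 TPM in re-expression livers, 217 ± 6.61 TPM in livers labelled DKO and 299 ± 22.1 TPM in control livers (SD, n = 4). Livers labelled DKO differed from control livers by -0.46 (adjusted p = 0.00166), and re-expression livers by -0.47 (adjusted p = 0.00277). Between the re-expression group and the DKO group limma and voom called 0 targets. There 3 had an unadjusted p under 0.05, beside 6.19% of all tested genes. Against control livers limma called Cyp8b1 higher and Slc2a2 lower, beside 1.82% of all tested genes.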

How the data were processed

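RNA was measured in 12 mouse livers. Trizol and a column purified the RNA, and 1 microgram entered a strand-specific library kit, per the labels' protocols. The submitters' processing notes name STAR 2.7.1a, featureCounts 2.0.1 and build mm10. The TPM values were deposited by the authors. The authors' deposited log2 fold changes and adjusted p-values, by numbered comparison, were used only where named. The first numbered comparison was matched to livers labelled DKO minus control livers by its correlation with the differences computed here (r = 0.94 over 17957 genes, 0.63 and -0.50 for the other two).

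TPM is not a count, so limma 3.58.1 in R 4.3.3 was fitted to log2(TPM + 1) of all 12 libraries, with 3 group means and a variance trend, two-sided, over genes whose TPM averaged 1 or more. Adding 1 understates changes of low genes. Each TPM times the gene's length less 199 bases gave whole reads for 100% of values, within 0.01 reads. These recovered reads gave the depth and an alternative (voom). The procedure was tested on simulated data. Those data gave all genes a common setting for spread and changes larger than the differences called for members. They do not show how the test does for genes as variable as Onecut1 or for changes as small as that of Cebpa. P-values rest on how much livers of the same group vary, pooled over all 3 groups and drawn towards a trend over genes. Positions are from GENCODE M21, and promoters from RefSeq. Figures used Python 3.11.15 and matplotlib 3.10.9.

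The members, lists, tests and alternatives were chosen with earlier results of these data known. Named were all members, the called genes of both lists with a few others of the smallest p, and the 3 named genes with the highest r with Onecut1 and each called member. Some genes that this rule names are not reported here. Same-numbered livers of different groups had r of their deviations over all tested genes from -0.07 to 0.14, so the main fit did not pair them. A low r over all genes cannot show that the numbers carry no pairing.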

Additional observations from a re-analysis of the deposited data

Results flagged for a closer look

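DKO replicate 3 stood far from the other livers of its group for Onecut1, at 49.6 TPM, and for Foxa1, at 25.3 TPM. The gap to the next liver was 0.949 and 0.877 of the group's range, above Dixon's 95% critical value for 4 samples. Of 27 sets of 4 livers examined, 2 were picked out, and chance picks out about 1 in 20. Both values come from the same liver. In other groups the highest levels were 46.9 TPM for Onecut1, in control replicate 4, and 25.7 TPM for Foxa1, in re-expression replicate 2.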

How the results depend on the processing

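The 27 differences of members were recomputed under 23 alternatives, 621 values in all. Of these 566 kept their direction and their side of the threshold, 30 lost a call, 3 gained one and 22 had the other sign. In livers labelled DKO against control livers 2 members were called. With no filter on low values, with the 8 libraries of the comparison alone, with the replicate number as a block and without control replicates 1 and 2 the number was 0. With size factors, with voom on recovered reads and without control replicates 3 and 4 it was 1, in each case Onecut2. It was 0 to 2 without each library in turn. In re-expression livers against control livers it was 1, not 0, with quantile normalization (Cebpa) and without control replicates 3 and 4 (Onecut2). It was 0 without each library in turn, as in re-expression livers against livers labelled DKO. The replicate block gave adjusted p of 0.0818 for Onecut2 and 0.0504 for Cebpa. The labels do not say whether the numbers pair the livers, so it is not settled how to read this block. All reversals were of a member in a comparison where it was not called. For livers labelled DKO against control livers, Foxa1 turned to 0.0105 without control replicates 1 and 2. Foxa2 turned to -0.000958 with a pseudocount of 0.1, to -0.00400 with voom and to -0.183 without control replicates 3 and 4, and ran from -0.33 to 0.24 without single libraries. Prox1 ran from -0.0691 to 0.33 without single libraries. Between re-expression livers and livers labelled DKO, Cebpa turned to 0.00439 with quantile normalization and ran from -0.0491 to 0.0156 without single libraries. Foxa3 ran from -0.0450 to 0.14, Gata4 from -0.22 to 0.0919 and Prox1 from -0.14 to 0.28. Between re-expression livers and control livers, Foxa1 turned to -0.183 without control replicates 3 and 4 and ran from -0.11 to 0.20 without single libraries. Over all genes, livers labelled DKO against control livers gave 537 higher and 421 lower calls, 328 and 231 with 8 libraries, 332 to 524 and 241 to 414 without single libraries, and 182 and 644 lower calls without control replicates 1 and 2 or 3 and 4. Re-expression livers against livers labelled DKO gave 5 higher and 8 lower calls, 12 and 22 with voom, 9 and 11 with 8 libraries, 3 and 5 with the block, and 1 to 7 and 4 to 8 without single libraries. Its higher calls were 3 with a pseudocount of 5, 11 without control replicates 1 and 2 and 8 without control replicates 3 and 4. Re-expression livers against control livers gave 208 higher and 119 lower calls, 115 and 47 with 8 libraries, 125 to 203 and 50 to 129 without single libraries, and 64 lower with the block, 234 with voom and 58 without control replicates 1 and 2. The causes of these shifts were not tested.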
